A study of Mus musculus with 6 samples.

Results

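Interferon-stimulated genes are the genes that cells switch on when interferons bind their receptors. A list of 40 such mouse genes was followed here in epididymal white adipose tissue, the fat pad along the epididymis. The list was set by gene name, with earlier results of these data known. It held 33 genes best known for their response to type I interferon and 7 GTPase genes best known for their response to interferon gamma. All 40 were among the 54356 genes summed from the deposited tables, and all 40 passed the filter on low counts, which left 17852 genes to test.

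Libraries came from 3 cold mice (cold 7, cold 12 and cold 16) and 3 control mice (ctrl 5, ctrl 6 and ctrl 10), the number being the mouse. All were wild type C57BL/6N males aged 20 weeks, normally kept at 22 to 24 °C. Cold mice were held alone at 4 °C for 24 h before dissection. The labels carry that treatment text on the control samples too, so the sources used here leave it unsaid whether the controls were housed alone. RNA was taken from whole frozen tissue, which holds adipocytes, blood vessels and immune cells together, so fewer cells of a type and less RNA per cell cannot be told apart.

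Type I interferons bind the receptor IFNAR, whose kinases JAK1 and TYK2 switch on the complex ISGF3, which includes STAT2 and IRF9. ISGF3 binds a DNA element called the ISRE and drives most genes of the type I family. Interferon gamma acts through a receptor of its own, with IRF1 as a second wave, and strongly drives the guanylate-binding proteins (GBPs) and the immunity-related GTPases (IRGs), which attack the membranes that enclose intracellular pathogens. Adipose tissue expresses these genes at a resting level, and macrophages, lymphocytes, endothelial cells and adipocytes can all respond to interferon.

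The DNA element that ISGF3 binds is shown first, so that the members below can be read against it. RefSeq promoter sequences (GRCm38.p6, 250 bases before to 50 bases after each gene's start) matched 29 of the 40 members, 23 of type I and 6 GTPase genes. The ISRE core was searched on both strands as GAAA, a gap of 2 bases of any kind and GAAA again, which reads TTTC, gap, TTTC on the other strand. It was present in 18 of the 29 (62.1%), against 1079 of the 27025 promoters in the table (3.99%). By family it was present in 12 of 23 type I genes (52.2%) and in 6 of 6 GTPase genes. A match is a description of these letters only. Stretches around the matches are given below for Bst2, the member whose change passed the test, for Gbp7, Gbp3 and Stat2, which had the smallest unadjusted p-values (0.0106, 0.0456 and 0.133) among the other members with a match before the start, and for Isg15, Ifit3 and Ifit3b, which were picked after their values were seen, the first for its overlapping matches and the other two as a near-identical pair. Each is on the strand of its gene, 5′ to 3′, and capitals mark the matches.
Bst2, chr8:71537567-71537636, minus strand: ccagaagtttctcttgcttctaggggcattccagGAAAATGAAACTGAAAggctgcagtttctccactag
Gbp7, chr3:142530243-142530312, plus strand: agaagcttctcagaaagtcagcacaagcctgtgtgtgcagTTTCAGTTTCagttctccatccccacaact
Gbp3, chr3:142559965-142560034, plus strand: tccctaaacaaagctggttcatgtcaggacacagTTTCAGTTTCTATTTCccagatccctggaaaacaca
Stat2, chr10:128270248-128270305, plus strand: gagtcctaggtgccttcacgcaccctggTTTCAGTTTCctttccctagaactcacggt
Isg15, chr4:156200855-156200924, minus strand: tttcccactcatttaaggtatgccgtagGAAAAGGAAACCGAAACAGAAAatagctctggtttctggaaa
Ifit3, chr19:34583367-34583436, plus strand: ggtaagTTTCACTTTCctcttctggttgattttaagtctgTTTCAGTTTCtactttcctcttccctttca
Ifit3b, chr19:34607763-34607832, plus strand: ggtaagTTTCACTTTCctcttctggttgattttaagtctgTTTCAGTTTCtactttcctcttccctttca
Bst2 and Gbp3 each held 2 overlapping matches in these stretches and Isg15 held 3. The Ifit3 and Ifit3b stretches were identical at 70 of 70 bases. Bst2 carried its matches as GAAA repeats and Gbp7, Gbp3 and Stat2 as the same repeats on the other strand.

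Total estimated counts were 22903050, 25142603 and 28608052 in cold 7, cold 12 and cold 16, and 24176464, 22969181 and 19735167 in ctrl 5, ctrl 6 and ctrl 10. Levels below are in CPM, counts brought to one library total after TMM scaling, which compare libraries and not genes, or in the authors' TPM, which are also scaled for transcript length. Log2 fold changes are cold over ctrl, with the standard error (SE), from the quasi-likelihood test of edgeR, whose p-values were adjusted by Benjamini and Hochberg's method over all genes tested. Called genes are those with an adjusted p under 0.05. Genes of epithelial cells and of motile cilia, which are not adipocyte genes, stood higher in cold libraries: all 10 listed epithelial genes and all 10 listed cilium genes had positive changes, 5 and 4 of them called. Their summed levels were 182, 298 and 269 CPM (epithelial) in the cold libraries and 65.3, 18.6 and 39.9 CPM in the control libraries, and 61.0, 179 and 148 CPM (cilium) in the cold libraries and 28.8, 7.79 and 6.58 CPM in the control libraries. Dnah5, a cilium motor gene, was at 0 in ctrl 10 and no other of these genes was at 0 in any library. Their part in the results below was not tested. Cold 7 had the lowest sums of the cold libraries and ctrl 5 the highest of the control libraries, and calls below are also given without both. The 8 listed adipocyte genes summed to 33174, 31334 and 30788 CPM in the cold libraries and 26625, 29606 and 30362 CPM in the control libraries. The labelled tissue's defining genes were thus abundant throughout, with every cold sum above every control sum. Of these 8 genes, 5 had negative and 3 positive changes (median −0.02), and 1 was called, a rise. The part of adipocyte content in the results below was not tested.

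Most interferon-stimulated genes had small negative changes in cold fat, and 1 of them, Bst2, fell past the test. Of the 40 members, 35 had a negative log2 fold change and 5 a positive one, with a median of −0.15 and a range of −0.66 to 0.14. Over all genes tested, 52.4% were negative and the median was −0.01. The members were read in the same mice and many share a regulator, so they are not 40 separate observations. Without both ctrl 5 and cold 7, 28 members were negative. The call rule took 1 member down and 0 up, where 0.566% of all genes were called lower and 2.32% higher (2.89% in either direction). At an unadjusted p under 0.05 there were 7 members, all lower (Bst2, Parp14, Gbp7, Ifit2, Xaf1, Rtp4 and Gbp3), where 6.99% of all genes were lower and 10.6% higher at that level. In 5 members every cold library was below every control library (Bst2, Parp14, Gbp7, Rtp4 and Xaf1), where 11.1% of all genes did so, so this share is near the background. In this fit over all transcripts, the 95% intervals of all 40 members excluded a doubling in the cold. A halving was excluded for 37 members and not for Ifi44, Oasl1 and Oas2. These intervals were not adjusted for the number of genes. With protein-coding transcripts only, Mx1 had a log2 fold change of 2.25, given below.

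**Figure D1:**
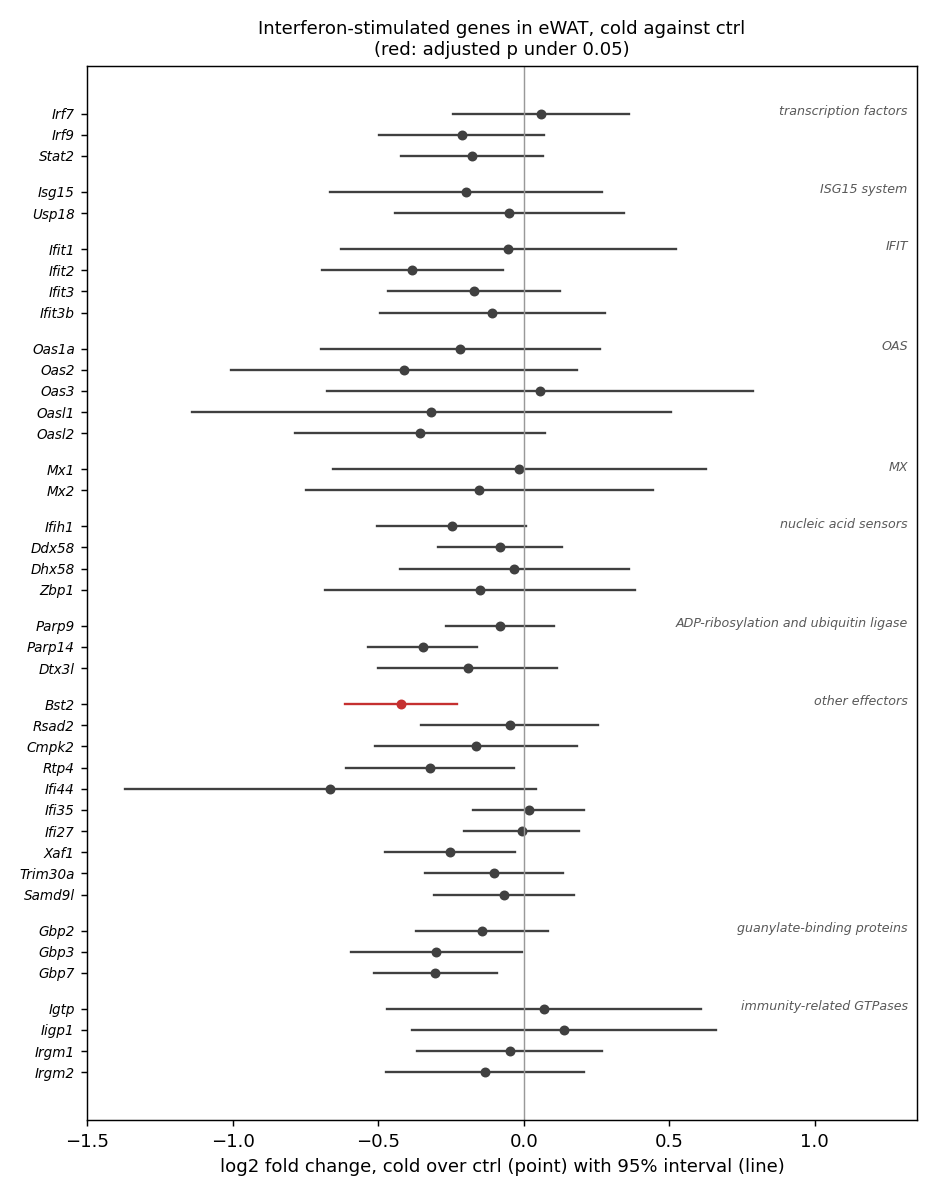
Log2 fold change (cold over ctrl, x axis) of each of the 40 interferon-stimulated genes with its 95% interval, type I and GTPase families apart, one row per gene. Most points lie left of 0, the intervals of 33 genes cross it, and Bst2 is the called one at −0.42.

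By family, 30 of 33 type I genes had negative changes (median −0.16, range −0.66 to 0.06) and 5 of 7 GTPase genes did (median −0.13, range −0.30 to 0.14). Within the GTPases the 3 GBPs were all negative (median −0.30), while the 4 IRGs were split, 2 negative and 2 positive (median 0.01). Single mice moved these medians: the type I median was −0.09 without cold 16, and the GTPase median was −0.04 without cold 7, −0.05 without cold 16, −0.07 without ctrl 5 and −0.23 without cold 12. No test was made of the difference between these families. They held 1 call (type I) and 0 calls (GTPase, 2 genes at an unadjusted p under 0.05 by edgeR, Gbp7 and Gbp3, and 0 calls by DESeq2).

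Levels differed widely between members. Ifi27 averaged 1064 TPM in the cold and 1074 TPM in controls, and Bst2 72.2 and 97.0 TPM. Over both groups 32 members had a mean of at least 5 TPM and the other 8 were under it, with Oas3 lowest at 0.430 TPM. Estimated counts per library ran from 25 to 39 for Oas3, and from 7505 to 11337 for Ifi27.

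**Figure D2:**
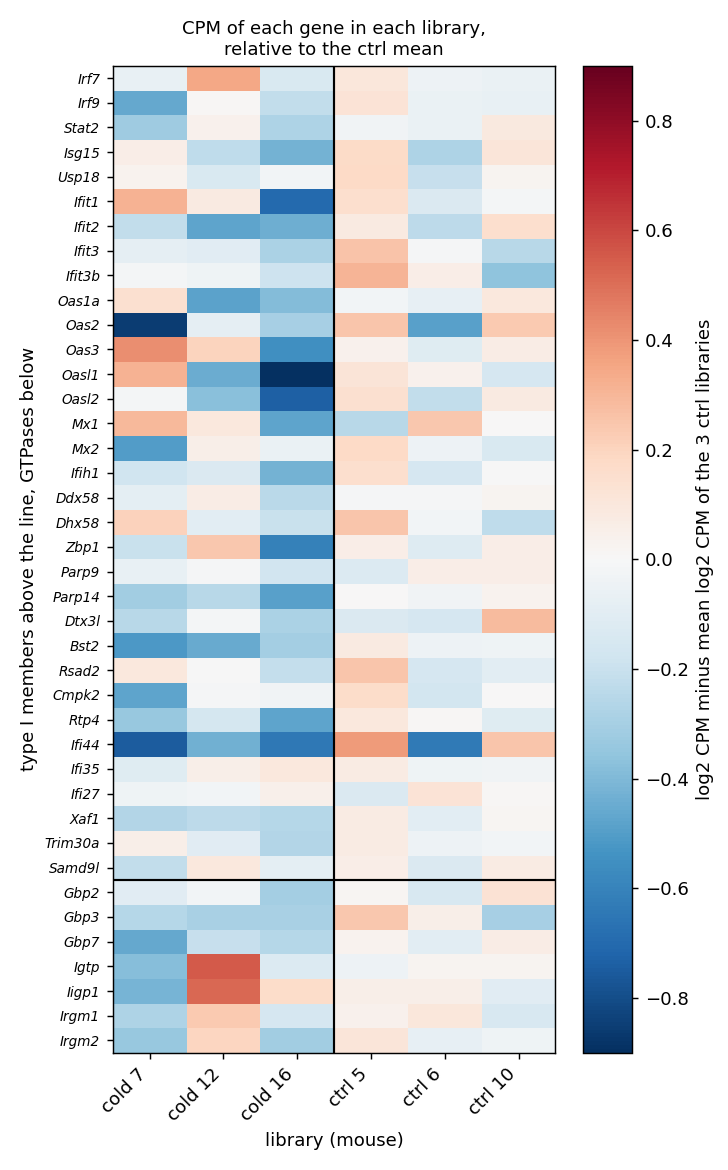
Deviation of each of the 40 genes from its mean in control libraries (log2 scale, colour) in each library (columns, cold libraries left of control libraries), rows grouped by role. Cold columns are mostly on the low side for the type I genes, while cold 12 is on the high side for the IRGs, and single rows such as Oas1a, Oasl1 and Mx1 change sign among libraries of one group.

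Among the transcription factors, Irf7, the factor that amplifies interferon production and is itself induced, had 25.5, 33.9 and 24.2 CPM in the cold libraries, against 28.7, 25.9 and 25.6 CPM in the control libraries (log2 fold change 0.06, SE 0.13, adjusted p = 0.875). Cold 12 was the highest of the 6 libraries and cold 16 the lowest, so the groups overlapped at both ends. Irf9, the DNA-binding partner in ISGF3, had 23.4, 32.4 and 27.7 CPM in the cold libraries, against 35.2, 31.0 and 30.8 CPM in the control libraries (−0.21, SE 0.12, adjusted p = 0.447). Stat2 had 35.9, 46.0 and 37.1 CPM in the cold libraries, against 43.9, 43.2 and 47.8 CPM in the control libraries (−0.18, SE 0.11, adjusted p = 0.462). For both genes cold 12 stood inside the range of the controls and the other two cold libraries below it. The 95% interval of Stat2 ran from −0.42 to 0.07 and that of Irf7 from −0.24 to 0.36.

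The ubiquitin-like protein ISG15 is attached to other proteins, and Usp18 removes it and also brakes the receptor IFNAR. Isg15 had 5.47, 4.48 and 3.91 CPM in the cold libraries, against 5.90, 4.34 and 5.65 CPM in the control libraries (−0.20, SE 0.20, adjusted p = 0.694). Usp18 had 5.21, 4.65 and 5.03 CPM in the cold libraries, against 5.78, 4.42 and 5.19 CPM in the control libraries (−0.05, SE 0.17, adjusted p = 0.926). In both, ctrl 5 was the highest library, and the groups overlapped.

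The IFIT proteins bind viral RNA and block its translation. Ifit2 had 13.0, 10.9 and 11.2 CPM in the cold libraries, against 16.0, 12.9 and 16.8 CPM in the control libraries (−0.38, SE 0.14, unadjusted p = 0.0218, adjusted p = 0.183). The highest cold library, cold 7, stood just above the lowest control, ctrl 6, and all others were apart. Ifit3, the most abundant of the group by TPM, had 31.8, 31.3 and 27.6 CPM in the cold libraries, against 40.1, 33.4 and 28.3 CPM in the control libraries (−0.17, SE 0.13, adjusted p = 0.573). Ifit3 and its neighbour Ifit3b share much of their sequence: 51.2% of the 50-base stretches of Ifit3 also occur in Ifit3b, so how Salmon divided reads between them is uncertain. Ifit3b (−0.11) and Ifit1 (−0.05) did not pass either.

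The OAS enzymes sense double-stranded RNA and make the messenger that activates RNase L, and Oasl2 is a relative. Oas2 had 5.69, 9.71 and 8.32 CPM in the cold libraries, against 12.2, 7.33 and 12.1 CPM in the control libraries (−0.41, SE 0.26, adjusted p = 0.486). Its lowest control, ctrl 6, was below cold 12 and cold 16. Oasl2 had 19.1, 14.9 and 11.6 CPM in the cold libraries, against 21.4, 16.6 and 20.4 CPM in the control libraries (−0.36, SE 0.19, adjusted p = 0.389), and cold 7 lay between ctrl 6 and the other two controls. The remaining OAS members had changes of −0.32 (Oasl1), −0.22 (Oas1a) and 0.06 (Oas3) with no call. Of the 50-base stretches of Oas1a, 57.6% also occur in Oas1g, which makes its count uncertain.

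Mx1 and Mx2, dynamin-like GTPases that trap viral particles and are known to be defective in C57BL/6 mice, had few reads. Mx1 had 2.67, 2.32 and 1.57 CPM in the cold libraries, against 1.83, 2.57 and 2.19 CPM in the control libraries (adjusted p = 0.987). Mx2 had 1.31, 1.93 and 1.78 CPM in the cold libraries, against 2.11, 1.81 and 1.69 CPM in the control libraries (−0.15, adjusted p = 0.826). Neither gene kept the groups apart. For Mx1 the transcripts summed changed the value: its transcripts annotated as protein-coding had 22.3, 13.3 and 43.7 estimated counts in the cold libraries, against 8.22, 3.27 and 3.31 in the control libraries, with no overlap. Tested on protein-coding transcripts only, Mx1 had a log2 fold change of 2.25 (adjusted p = 0.0946), against −0.02 over all its transcripts, and the cause was not tested. Cold 16 had no count in the decay-annotated transcripts of Mx1, which held most of its counts in the other 5 libraries.

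The RIG-I-like receptors detect viral RNA in the cytosol: Ddx58 encodes RIG-I, Ifih1 encodes MDA5, and Dhx58 encodes their modulator LGP2. Ifih1 had 26.0, 26.9 and 21.9 CPM in the cold libraries, against 32.8, 26.6 and 29.4 CPM in the control libraries (−0.25, SE 0.11, unadjusted p = 0.0560, adjusted p = 0.303). Only cold 12 reached above the lowest control. Ddx58 had 28.7, 32.0 and 25.8 CPM in the cold libraries, against 30.3, 30.3 and 31.0 CPM in the control libraries (−0.08, SE 0.09, adjusted p = 0.725), the controls lying inside the spread of the cold libraries. Dhx58 (−0.03) and Zbp1 (−0.15), a sensor of Z-form nucleic acid that starts cell death, were not called.

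Parp9, Dtx3l and Parp14 act on ADP-ribosylation, and PARP9 and DTX3L work as a complex. Parp14 (chr16:35832874-35871544, minus strand) had 37.9, 39.5 and 33.6 CPM in the cold libraries, against 47.2, 46.0 and 48.0 CPM in the control libraries. The controls were close together and every cold library lay below them. Means were 37.0 ± 3.07 CPM in the cold and 47.0 ± 1.01 CPM in controls (SD, n = 3 each). The log2 difference of −0.35 (SE 0.08) missed the threshold in edgeR, with an adjusted p of 0.0633, and DESeq2 gave an adjusted p of 0.0281. Parp9 had 59.5, 62.0 and 55.3 CPM in the cold libraries, against 57.3, 65.1 and 64.9 CPM in the control libraries (−0.08, SE 0.08, adjusted p = 0.682). Dtx3l had 36.3, 42.4 and 35.2 CPM in the cold libraries, against 39.3, 38.8 and 52.3 CPM in the control libraries (−0.19, adjusted p = 0.531), where ctrl 10 alone stood high. The PARP9 and DTX3L genes lie on opposite strands and share 458 exon bases, which the strand-specific libraries can tell apart if the counting used strand, a setting on which the sources used here are silent.

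Bst2 encodes tetherin, a membrane protein that holds budding virus particles at the cell surface. It was the called member. It lies at chr8:71534255-71537456 on the minus strand (GRCm38, GENCODE M21). Bst2 had 28.1, 29.4 and 32.5 CPM in the cold libraries, against 42.5, 38.9 and 39.2 CPM in the control libraries. The highest cold library, cold 16, was well under the lowest control, ctrl 6. Means were 30.0 ± 2.24 CPM in the cold and 40.2 ± 1.98 CPM in controls (SD, n = 3 each). The log2 fold change was −0.42 (SE 0.08, 95% interval −0.62 to −0.23, adjusted p = 0.0411 by edgeR), a fall with an interval of −34.7 to −14.7%. None of its 50-base stretches occurs in another gene, and 1 transcript held 96.9 to 98.7% of its counts in every library, so little of its count rests on dividing reads between copies. The call was narrow: leaving out any 1 of the 6 mice gave adjusted p-values of 0.0506 to 0.162, and without both ctrl 5 and cold 7 it was 0.149, with the log2 fold change at −0.49 to −0.33 over all alternatives run. BST2 is also a surface marker of plasmacytoid dendritic cells, the main producers of type I interferon in blood. Of 6 listed genes of these cells, 4 had enough reads to test, 1 with a negative and 3 with positive changes (median 0.07), and none was called. Siglech, a defining one, had 1.21, 1.55 and 2.19 CPM in the cold libraries and 2.18, 0.537 and 1.86 CPM in the control libraries. Pacsin1 was the 1 with an unadjusted p under 0.05, with 0.70, 2.95 and 2.31 CPM in the cold libraries and 0.578, 0.223 and 0.205 CPM in the control libraries (2.52, SE 0.63, adjusted p = 0.0762). Like the summed epithelial markers, Pacsin1 was highest in cold 12 and lowest in cold 7 among cold libraries, and highest in ctrl 5 among controls. The part of epithelial cells in it was not tested. The 6 genes summed to 157, 162 and 197 CPM in the cold libraries and 168, 159 and 174 CPM in the control libraries. Siglech and Pacsin1 were a small part of these sums.

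Among the other effectors, Xaf1, which promotes cell death, had 12.9, 13.1 and 12.9 CPM in the cold libraries, against 16.3, 14.5 and 15.6 CPM in the control libraries (−0.25, SE 0.10, unadjusted p = 0.0312, adjusted p = 0.222). Rtp4, a receptor transport protein that binds viral RNA, had 10.6, 12.0 and 9.60 CPM in the cold libraries, against 14.3, 13.5 and 12.4 CPM in the control libraries (−0.32, SE 0.13, unadjusted p = 0.0329, adjusted p = 0.227). Neither gene's groups overlapped, and Rtp4 shares 13.9% of its exon bases with the transcript Gm45338 on the same strand. Ifi27, a mitochondrial protein gene and by far the most abundant member, had 373, 377 and 396 CPM in the cold libraries, against 349, 417 and 385 CPM in the control libraries (−0.01, SE 0.09, 95% interval −0.20 to 0.19, adjusted p = 0.980). Its cold libraries lay inside the range of the controls. Ifi44 had the most negative estimate of all members, −0.66, from a wide interval of −1.37 to 0.04 (adjusted p = 0.321), and its levels were 1.49, 1.85 and 1.61 CPM in the cold libraries and 3.27, 1.61 and 2.98 CPM in the control libraries. Rsad2 (viperin, which makes a chain-terminating nucleotide), Cmpk2, Ifi35, Trim30a and Samd9l lay between −0.16 and 0.02 and were not called.

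**Figure D3:**
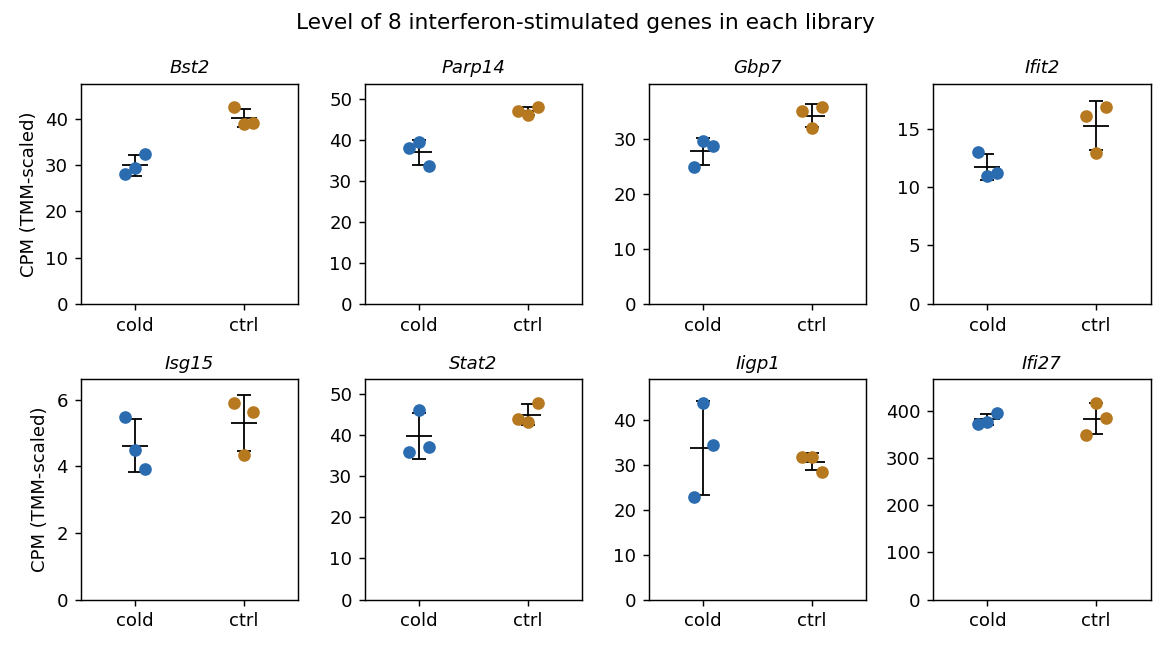
Level in CPM after TMM scaling (y axes, each starting at 0) of 8 members in each library (points), cold left of ctrl, with the group mean and SD. Bst2 and Parp14 have no overlap between groups, Gbp7 likewise, while Ifi27, Iigp1, Isg15, Stat2 and Ifit2 overlap.

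The GBPs gather on pathogen vacuoles and bacteria. Gbp7 (chr3:142530342-142550149, plus strand) had 24.9, 29.5 and 28.6 CPM in the cold libraries, against 35.0, 31.9 and 35.7 CPM in the control libraries. Means were 27.7 ± 2.48 CPM in the cold and 34.2 ± 2.02 CPM in controls (SD, n = 3 each; −0.30, SE 0.09, unadjusted p = 0.0106, adjusted p = 0.125). Every cold library lay below every control, and 12.8% of its 50-base stretches occur elsewhere, mostly in the pseudogene Gm43802. Gbp3 had 28.1, 27.5 and 27.5 CPM in the cold libraries, against 39.8, 34.9 and 27.4 CPM in the control libraries (−0.30, SE 0.13, unadjusted p = 0.0456, adjusted p = 0.271). The cold libraries were close together, and ctrl 10 was near them while ctrl 5 and ctrl 6 were higher. Gbp2, the most abundant of the 3, had 59.0, 62.1 and 51.3 CPM in the cold libraries, against 64.0, 57.3 and 69.1 CPM in the control libraries (−0.14, SE 0.10, adjusted p = 0.530).

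Cold mice differed from each other in the IRGs. Iigp1 had 22.9, 43.7 and 34.3 CPM in the cold libraries, against 31.7, 31.7 and 28.5 CPM in the control libraries (0.14, SE 0.22, 95% interval −0.38 to 0.66, adjusted p = 0.814). Irgm2 had 26.9, 39.0 and 27.4 CPM in the cold libraries, against 36.7, 32.4 and 33.3 CPM in the control libraries (−0.13, SE 0.15, adjusted p = 0.718). Irgm1, a regulator of the other IRGs, had 20.9, 29.8 and 22.9 CPM in the cold libraries, against 26.1, 27.2 and 23.0 CPM in the control libraries (−0.05, adjusted p = 0.906). In all 3, cold 12 was the highest library and cold 7 the lowest. Igtp was alike, with 15.0, 28.7 and 18.0 CPM in the cold libraries and 19.0, 19.9 and 19.9 CPM in the control libraries, but it shares 162 exon bases with Irgm2 on the same strand and 12.3% of its 50-base stretches with other genes.

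Individual mice differed within each group. The median deviation from the mean of the controls (log2 scale) was −0.09, −0.04 and −0.28 in the cold libraries for type I genes, and 0.10, −0.06 and 0.01 in the control libraries. The type I median of cold 12 lay above that of ctrl 6, so the groups overlapped. Cold 16 was the lowest cold library in 19 of 33 type I genes (57.6%), against 31.0% of all genes tested. Ctrl 5 was the highest control in 22 of 33 (66.7%), against 30.7% of all genes. For the 3 member GBPs the medians were −0.26, −0.21 and −0.29 in the cold libraries, and 0.03, −0.10 and 0.06 in the control libraries. The median of each cold mouse was thus under that of every control. Of these genes only Gbp7 had no overlap between groups, where 11.1% of all genes had every cold library lower. For the IRGs the medians were −0.36, 0.37 and −0.14 in the cold libraries, and 0.05, 0.04 and −0.07 in the control libraries. Cold 12 was the highest cold library in 6 of 7 GTPase genes (85.7%), against 34.0% of all genes. With 3 mice a group, these orders are descriptions of the mice and carry no test.

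**Figure D4:**
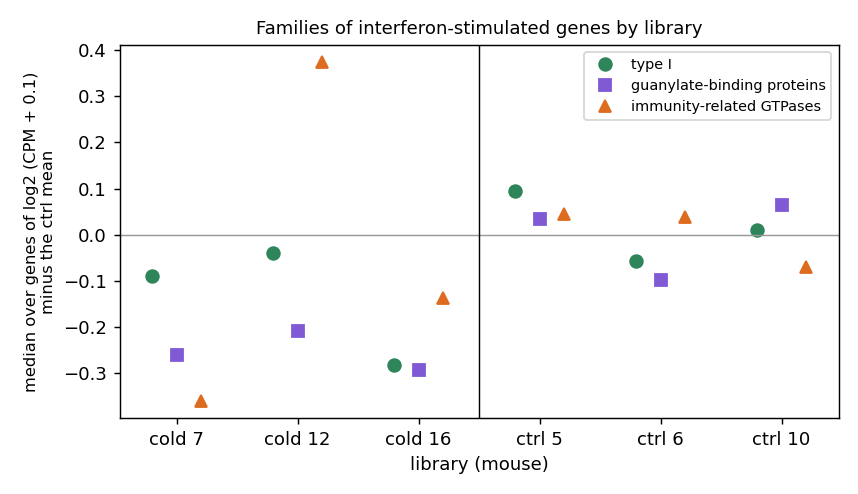
Median log2 deviation from the mean of the control libraries (y axis) of the type I genes, the GBPs and the IRGs in each library (points), cold left of ctrl. Cold GBP medians sit at −0.29 to −0.21, below the control ones, and the cold IRG medians spread from −0.36 to 0.37 around the control ones.

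The genes that make and carry the signal were read beside the members. Of 11 listed interferon genes none passed the filter on low counts, and 9 had no count in any library, namely Ifna1, Ifna2, Ifna4, Ifna5, Ifnb1, Ifne, Ifnk, Ifnl2 and Ifnl3. A count of 0 allows up to 3 reads, or 0.105 to 0.131 CPM in the cold libraries and 0.125 to 0.153 CPM in the control libraries, counting error only. Ifng had estimated counts of 0, 0 and 4 in the cold libraries and 3, 1 and 3 in the control libraries, at or near that limit. Of the 42 listed genes of the pathway, 31 could be tested, and 22 had negative and 9 positive changes with a median of −0.08. None was called by edgeR or DESeq2, and 6 had an unadjusted p under 0.05, 5 lower and 1 higher. The receptor chain Il10rb, which serves interferon lambda and IL-10, had 62.0, 53.7 and 55.7 CPM in the cold libraries, against 72.4, 70.3 and 62.6 CPM in the control libraries (−0.26, adjusted p = 0.153). Ifnlr1, the chain specific to interferon lambda and mainly an epithelial gene, was the 1 higher, with 0.832, 2.63 and 2.03 CPM in the cold libraries, against 1.16, 0.538 and 0.565 CPM in the control libraries (1.27, SE 0.49, adjusted p = 0.222). Its order over the libraries is that of the summed epithelial markers within the cold group, cold 12 highest and cold 7 lowest, and within the control group, ctrl 5 highest. The part of those cells in it was not tested.

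A further 55 interferon-responsive genes outside the 40 were listed, and 54 were tested. Of these 43 were negative and 11 positive with a median of −0.19, and 12, all lower, had an unadjusted p under 0.05 (6.99% of all genes). Every cold library was under every control in 15, where 11.1% of all genes did so. There was 1 call, a fall: Psmb9, an immunoproteasome subunit that interferon gamma induces, with 22.3, 23.2 and 21.9 CPM in the cold libraries, against 29.7, 28.1 and 30.4 CPM in the control libraries (−0.39, SE 0.08, adjusted p = 0.0399). Its cold libraries were tightly grouped below the controls. Over the 12 alternatives Psmb9 was called in 4. Its log2 fold change there ran from −0.41 to −0.26 and its adjusted p from 0.0136 to 0.182. Ifi27l2a, a close relative of Ifi27, had 281, 369 and 267 CPM in the cold libraries, against 529, 409 and 483 CPM in the control libraries (−0.63, SE 0.15, adjusted p = 0.0632). Tap1, which feeds peptides to MHC class I, had 44.3, 46.4 and 42.9 CPM in the cold libraries, against 54.7, 53.4 and 52.8 CPM in the control libraries (−0.27, SE 0.07, adjusted p = 0.0752). Neither Ifi27l2a nor Tap1 passed in edgeR, and neither had overlapping groups. The annotated spans of Psmb9 and Tap1 overlap on opposite strands, and whether the counting used strand is not stated. DESeq2 called Ifi27l2a (adjusted p = 0.000483), and Cxcl9, a chemokine that interferon gamma induces, was also called there (−0.50, adjusted p = 0.0255). With no low-count filter edgeR called both, with adjusted p-values of 0.0169 and 0.0179.

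Cell type markers were read in the same libraries. All 12 listed T, NK and B cell genes had negative changes (median −0.36, 0 called), with sums of 20.1, 15.1 and 14.4 CPM in the cold libraries and 25.7, 19.0 and 19.2 CPM in the control libraries. All 9 endothelial genes were negative (median −0.14, 0 called), with sums of 1250, 1233 and 1387 CPM in the cold libraries and 1470, 1493 and 1539 CPM in the control libraries, which do not overlap. Of 10 macrophage genes 8 were negative (median −0.09, 0 called), with sums of 1074, 758 and 620 CPM in the cold libraries and 970, 881 and 852 CPM in the control libraries. No marker of these 3 lists was at 0 in any library. Progenitor and stromal genes went mostly the other way, with 6 of 8 positive (median 0.09, 0 called). Their sums were 4099, 2423 and 2413 CPM in the cold libraries and 3208, 2429 and 3310 CPM in the control libraries. The part of cell make-up in the values of the members was not tested.

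Transcripts within the members were compared by their share of the gene's counts. One transcript held at least 95% of the counts in 16 members. Among 48 transcripts of 19 members with a share of at least 10%, 4 had shares that did not overlap between groups, where 11.3% of the transcripts compared over all genes did so, a share near the background. A retained-intron transcript of Zbp1 held 28.9, 35.5 and 33.6% in the cold libraries, against 18.1, 16.6 and 16.3% in the control libraries, from 28.6 to 53.3 estimated counts in the cold libraries and 16.5 to 22.7 in the control libraries. In Oasl2 the transcripts annotated for nonsense-mediated decay held 58.4, 55.0 and 73.8% in the cold libraries and 56.3, 55.8 and 56.1% in the control libraries, more than the protein-coding ones at 29.5, 28.7 and 20.2% in the cold libraries and 29.2, 27.8 and 27.5% in the control libraries. Cold 16 alone stood apart there. Retained-intron transcripts of Irf7 held 25.7, 27.1 and 30.8% in the cold libraries and 28.3, 33.7 and 28.2% in the control libraries. Salmon divides reads that fit several transcripts, and that uncertainty is not in these shares.

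**Figure D5:**
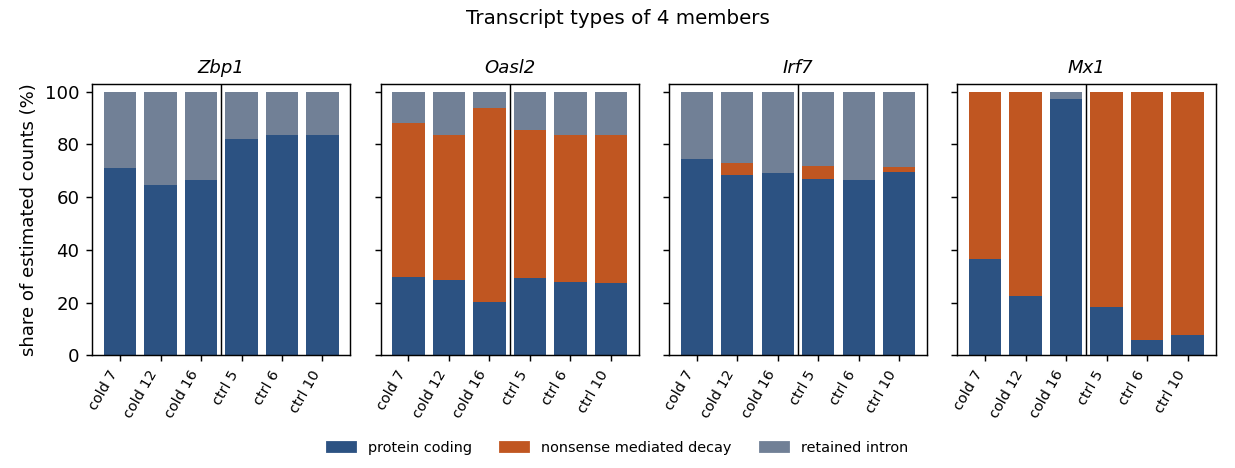
Share of a gene's estimated counts (percent, y axis) held by each annotated transcript type in Zbp1, Oasl2, Irf7 and Mx1, as stacked bars per library, cold left of ctrl. Decay-annotated transcripts hold most of the Oasl2 counts in every library, and in Mx1, a gene with few reads, that type is 0 in cold 16.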

How the data were processed

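Poly(A) RNA of 6 fat pads was sequenced as strand-specific paired 50 nt reads, per the labels' protocols. The submitters' processing notes name bcl2fastq, cutadapt, Salmon and GRCm38, with no versions. The authors deposited for each library Salmon's estimated counts, TPM (scaled for length and depth) and effective lengths of 140658 transcripts, per the file headers. Of these, 140137 were joined to GENCODE M21, and 521 with 0.124 to 0.394% of counts were left out. Estimated counts were summed per gene and rounded. The deposited TPM values serve only to compare levels between genes.

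Genes passing filterByExpr (minimum 10, total 15) were fitted in R 4.3.3 with edgeR 4.0.16 (TMM, robust glmQLFit, glmQLFTest, two-sided, no covariate). An exact permutation test of 3 against 3 cannot go below p = 0.10. Within each group, all pairs of libraries differed by more than counting noise (chi-square over its degrees of freedom, 12.2 to 33.2), and all 6 libraries were kept. No label gives a batch or date.

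The members and lists were chosen with earlier results of these data known. Genes named were the called members, the 2 smallest p-values and the highest TPM in each role group, and the called genes and 3 smallest p-values of the pathway and other lists. Not every gene named by this rule is reported here. Rtp4, Ifi44, Igtp, Siglech and the transcripts were described after their values were seen. Alternatives were RLE scaling, no filter, DESeq2 1.42.0, a length offset, protein-coding transcripts only and leaving out libraries. The steps were tested on simulated data.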

Additional observations from a re-analysis of the deposited data

How the results depend on the processing

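Among the 40 members, the 1 fall (Bst2) stood alone with RLE scaling, and 2 fell (Bst2 and Parp14) with no low-count filter and with DESeq2. The count was 0 with the transcript length offset, with protein-coding transcripts only, without both ctrl 5 and cold 7, and in each fit that left out 1 mouse (0 to 0). The adjusted p of Bst2 was 0.0799, 0.0556 and 0.149 in the first 3 of these. No member was called higher in any of the 12 alternatives. Falls and rises counted in this section are calls. Over all genes, 101 fell and 415 rose, against 228 and 696 with no filter and 297 and 1133 with DESeq2. There were 58 falls with the offset, 51 falls and 255 rises with protein-coding transcripts, 1145 rises without both mice, and 0 to 161 falls and 0 to 929 rises with 1 mouse left out. Among these, cold 12, ctrl 6 and ctrl 10 gave 0 calls when left out (2546, 3071 and 2835 genes at an unadjusted p under 0.05). Of the other listed interferon-responsive genes, 3 fell with no filter and with DESeq2 (Psmb9, Ifi27l2a and Cxcl9), 0 with the offset, without both mice and with protein-coding transcripts, and 0 to 1 with 1 mouse left out. Of pathway genes, 1 fell without cold 7 (Irf5, adjusted p = 0.0359), a range of 0 to 1, and 1 rose without both mice (Ifnlr1, adjusted p = 0.0148). The type I median stayed negative in all 12 alternatives (−0.20 to −0.09 with 1 mouse left out). The GTPase median was −0.23 to −0.04 with 1 mouse left out and 0.02 without both mice. Mx1 was at 2.25 on the log2 scale with protein-coding transcripts only and between −0.30 and 0.18 otherwise. The number of members with negative changes ran from 28, without both mice, to 35. The sign held in all 12 alternatives for 21 of the 35 negative members and for 0 of the 5 positive ones. The cause of these shifts was not tested. Counting error is largest for the members with the fewest reads, such as Oas3 (25 to 39 estimated counts per library). No paired analysis was possible because the mouse numbers differ between the groups.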
